A study of Homo sapiens with 8 samples.

Results

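Oxidative phosphorylation genes were examined in all treatment groups of a series on HL60, a leukaemia cell line of promyelocytic type. The members were the genes of the deposited table whose symbols mark subunits of respiratory complexes I to V (NDUF, SDH, UQCR, COX4 to COX8 and ATP5 symbols) or the mitochondrial genome (MT- symbols). The rule matched 96 of 9543 genes. Of these, 83 were nuclear and 13 were the protein-coding genes of mitochondrial DNA. By complex, the nuclear members comprised 33 subunits of complex I, 4 of complex II, 8 of complex III, 11 of complex IV and 15 of complex V, with 8 NDUFAF assembly factors of complex I. The other 4 nuclear members, NDUFA4L2, COX7A2L, ATP5S and UQCRHL, carry a matching symbol without being standard subunits.

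The cells had been exposed for 72 h to vitamin C together with DZNep (VC + DZNep), to DZNep alone, to vitamin C alone (VC) or to phosphate-buffered saline (PBS), with 2 libraries in each group and 8 in all. DZNep (3-deazaneplanocin A) blocks S-adenosylhomocysteine hydrolase and thereby methylation reactions, including those of the histone methyltransferase EZH2. All groups were the same unmodified cell line, which limits the data to 1 line in culture. Whether the paired libraries were grown as separate cultures is not stated in the labels. Every p-value therefore reflects only the spread between these libraries, which may be technical. The series title names the effect of vitamin C on the anti-leukaemic action of DZNep as its question.

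In the respiratory chain, complexes I and II pass electrons from NADH and succinate to ubiquinone, complex III hands them to cytochrome c, and complex IV delivers them to oxygen. Complexes I, III and IV pump protons, and complex V, the ATP synthase, uses the resulting gradient to make ATP. The chain is built from the products of 2 genomes: mitochondrial DNA encodes a few hydrophobic core subunits of complexes I, III, IV and V, while complex II and all remaining subunits are encoded in the nucleus.

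The deposited values are normalized scores, and they limit what can be compared. Sorted by size, the values of all 8 libraries were identical. They summed to 1988507, ran from 2 to 10345 and had a median of 88, so read depth is unknown and precision rests on the spread between libraries. In each library 10 genes held the highest value. When genes were divided into deciles by their genomic span, each decile had 1 such gene, and this was so in all 80 pairs of a decile and a library. A value therefore behaves as a gene's position among genes of like span, and values of different genes are not abundances. Below the highest value this was not checked, and the same rank could carry slightly different values. All 96 members had a mean of at least 10 over the libraries, the minimum for testing. Of 8 markers of the line, 5 were in the table. MPO, the granule myeloperoxidase, stood at 2726 to 3652 and did not pass. CTSG, cathepsin G of the same granules, had 8 and 7 with VC + DZNep, 10 and 14 with DZNep, 42 and 43 with VC, and 30 and 27 with PBS, and was lower in both groups with DZNep (log2 fold change against PBS -1.80 ± 0.29 with VC + DZNep, adjusted p = 0.00199, and -1.20 ± 0.29 with DZNep, adjusted p = 0.0218). SRGN, the granule proteoglycan serglycin, was higher by 2.54 ± 0.20 with VC + DZNep (adjusted p = 2.48e-05) and by 2.06 ± 0.20 with DZNep (adjusted p = 0.000306). CD33 passed as higher with VC + DZNep and MYC with DZNep.

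Of 19 markers of other cells, 4 were in the table. CD2, a lymphoid gene, had 22 and 38 with VC + DZNep, 10 and 14 with DZNep, 7 and 6 with VC, and 7 and 6 with PBS, and passed as higher with VC + DZNep against PBS (adjusted p = 0.00697). PECAM1, an endothelial gene also made by blood cells, had 56 and 55 with VC + DZNep, 40 and 37 with DZNep, 34 and 30 with VC, and 33 and 26 with PBS, and passed with VC + DZNep (adjusted p = 0.0120). ITGA2B, a megakaryocyte integrin, had 413 and 394 with VC + DZNep, 718 and 620 with DZNep, 380 and 380 with VC, and 450 and 374 with PBS, and passed with DZNep (adjusted p = 0.00337). CD79A, a lymphoid gene, ran from 8 to 22 and did not pass. The part of these marker genes in the results was not tested. In bulk RNA, fewer cells of a type and less RNA per cell cannot be told apart.

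The mitochondrial genes sat at one end of the span scale. All 13 spanned 207 to 1812 bases and fell in the shortest decile, the 954 genes with a span of up to 6403 bases. The nuclear members had a median span of 12731 bases, against 33496 for all genes, and 67 of 83 fell in the 5 shorter deciles, 21 of them in the shortest. The nuclear members' mean values over the 8 libraries lay between 16.2 and 1276 with a median of 120. In the mitochondrial genes single values lay between 686 and 10345, and 81 nuclear members were below 686 in every library.

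Relative to PBS, oxidative phosphorylation genes changed with DZNep about as often as other genes did. With VC + DZNep, 18 of the 96 members (18.8%) passed an adjusted p of 0.05 against PBS, 13 higher and 5 lower, beside 19.7% of the 9513 genes tested. With DZNep alone, 14 members (14.6%) passed, 10 higher and 4 lower, beside 13.1% of all genes. With VC alone no member passed and no gene of the table did (0%); 7 members and 462 genes had an unadjusted p under 0.05. All of these tests are limma's moderated test on log2(value + 1), two-sided, with Benjamini-Hochberg adjustment over all genes, and fold changes on that scale understate the changes of genes with low values. Each member called had both treated libraries outside the range of both PBS libraries, which follows in large part from passing the test. Such separation was common. With VC + DZNep it was upward in 2789 and downward in 2579 of the 9513 genes, beside 39 and 21 of the 96 members. With DZNep it was upward in 2545 and downward in 2415 genes, beside 33 and 11 members.

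More members were called higher than lower in both comparisons with DZNep. Against PBS, 6.42% of all genes were called higher and 6.63% lower with DZNep, and 9.52% higher and 10.2% lower with VC + DZNep. The median log2 fold change over the 71 nuclear subunits was 0.11 with VC + DZNep, 0.13 with DZNep and 0.06 with VC. Over all genes tested it was 0.014 with VC + DZNep, 0.0066 with DZNep and 0.0018 with VC. Standard errors of the nuclear members that were called ran from 0.09 to 0.39. The 2 comparisons with DZNep share the PBS libraries, so their values are set side by side only.

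The number of calls was sensitive to the libraries in the fit. Leaving out 1 library also leaves less information on the spread of every gene. The share of all genes called in these fits is not given here, so a fall particular to the members is not shown. Against PBS with DZNep, the count of 14 members became 1 without DZNep replicate 1, 3 without DZNep replicate 2, 3 without PBS replicate 1 and 5 without PBS replicate 2. It became 7 without VC replicate 1 and 8 without VC replicate 2. Against PBS with VC + DZNep, the count of 18 became 5 without VC + DZNep replicate 1, 7 without VC + DZNep replicate 2 and 9 without PBS replicate 1. NDUFB9 with VC + DZNep held its call in every alternative, and no call of DZNep alone did.

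**Figure D1:**
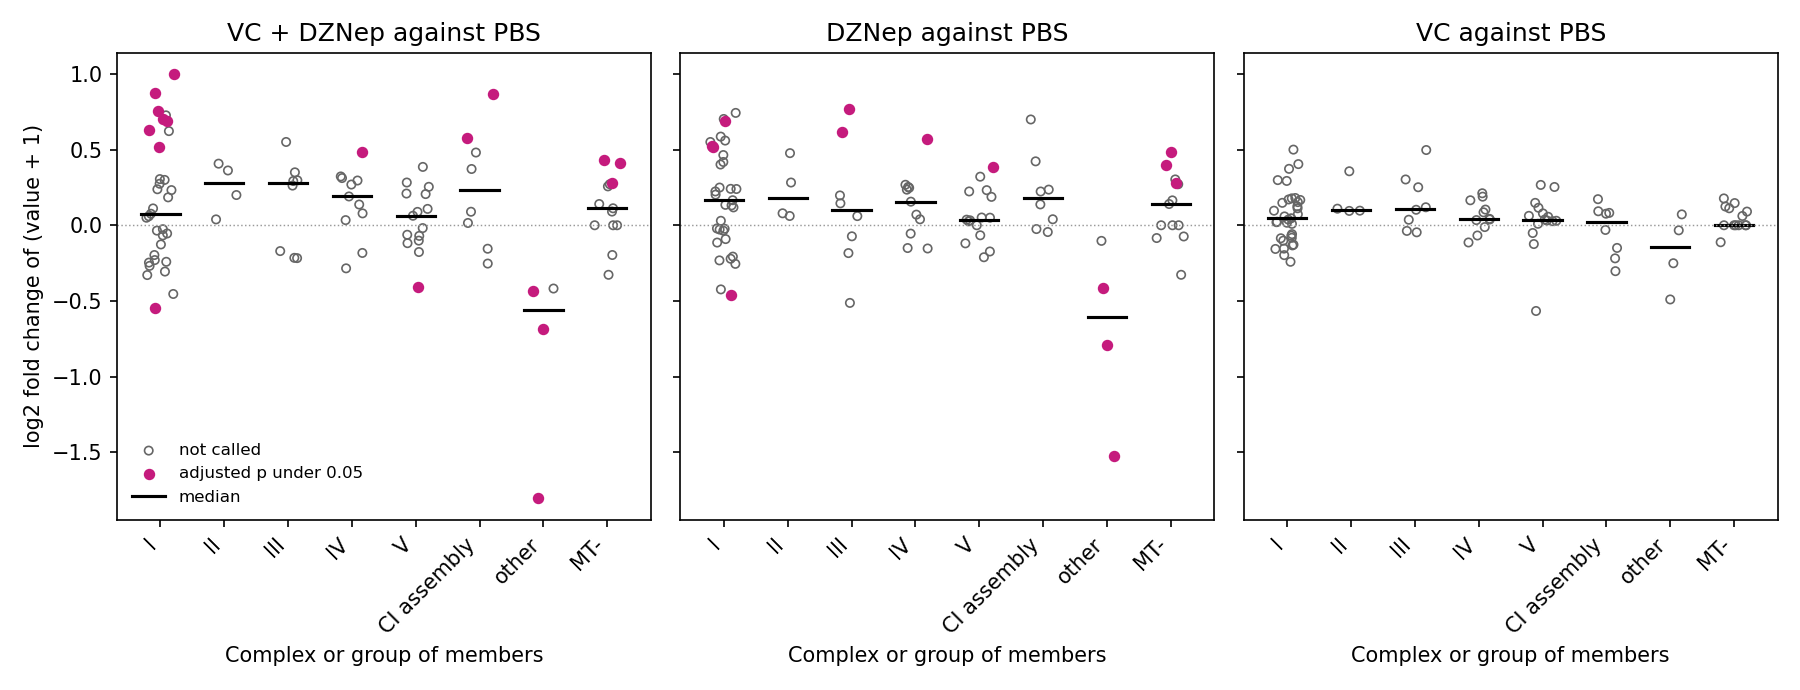
Log2 fold change of (value + 1) of each member against PBS, by complex or group of members, with VC + DZNep, DZNep and VC. Filled points passed an adjusted p of 0.05 and horizontal lines are medians; 18, 14 and 0 members are filled in the panels for VC + DZNep, DZNep and VC, and the 4 members grouped as other lie below 0 in both panels with DZNep.

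Complex I, the NADH dehydrogenase and largest complex of the chain, had 8 of its 33 nuclear genes called against PBS with VC + DZNep (24.2%, beside 19.7% of all genes) and 4 with DZNep (12.1%, beside 13.1%). The nuclear ones called higher were all accessory subunits, which surround the catalytic core. NDUFB9, an accessory subunit of the membrane arm, had 342 and 368 in the VC + DZNep libraries, 301 and 256 with DZNep, 196 and 222 with VC, and 199 and 187 with PBS. All 4 libraries with DZNep lay above all 4 without it. Against PBS its log2 fold change was 0.88 ± 0.12 (SE) with VC + DZNep (adjusted p = 0.000718) and 0.52 ± 0.12 with DZNep (adjusted p = 0.0174). Against VC alone the combination gave 0.76 ± 0.12 (adjusted p = 0.00209), and that call also held in every alternative. NDUFB9 shares 16.5% of its exon bases with a neighbour on the opposite strand, and the strand used in counting is not stated, so its reads and those of the neighbour cannot be told apart.

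NDUFA12, an accessory subunit of the peripheral arm, had 125 and 116 with VC + DZNep, 116 and 97 with DZNep, 90 and 102 with VC, and 80 and 68 with PBS. Both PBS libraries were the lowest, and the VC and DZNep libraries overlapped. Its log2 fold change against PBS was 0.70 ± 0.15 with VC + DZNep (adjusted p = 0.0102) and 0.52 ± 0.15 with DZNep (adjusted p = 0.0487). NDUFA5, an accessory subunit of the peripheral arm, had 120 and 138 with VC + DZNep, 148 and 142 with DZNep, 107 and 92 with VC, and 86 and 93 with PBS. It was highest with DZNep alone, at 0.69 ± 0.14 against PBS (adjusted p = 0.00972), and 0.52 ± 0.14 with VC + DZNep (adjusted p = 0.0244).

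Another 4 accessory subunits passed the test against PBS with VC + DZNep and not with DZNep alone. NDUFC2, a membrane-arm subunit, averaged 47.0 ± 4.2 with VC + DZNep, 39.5 ± 7.8 with DZNep, 26.0 ± 2.8 with VC and 23.0 ± 1.4 with PBS (SD, n = 2 each). Its log2 fold change against PBS was 1.00 ± 0.23 with VC + DZNep (adjusted p = 0.0121), the largest positive one among the members, and 0.74 ± 0.23 with DZNep (adjusted p = 0.0541). The libraries read 50 and 44 with VC + DZNep, 34 and 45 with DZNep, 24 and 28 with VC, and 22 and 24 with PBS, so the 2 groups with DZNep overlapped each other and stayed above both groups without it. NDUFC2 shares 16.2% of its exon bases with a readthrough transcript on the same strand, so its reads are uncertain.

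NDUFA2, a small accessory subunit of the peripheral arm, had 102 and 91 with VC + DZNep, 82 and 90 with DZNep, 66 and 59 with VC, and 62 and 62 with PBS (log2 fold change with VC + DZNep against PBS 0.63 ± 0.15, adjusted p = 0.0148). NDUFB2, a membrane-arm subunit, had 68 and 72 with VC + DZNep, 68 and 57 with DZNep, 47 and 43 with VC, and 36 and 47 with PBS (0.75 ± 0.19, adjusted p = 0.0195). NDUFAB1, the mitochondrial acyl carrier protein, which is also a subunit of complex I, had 94 and 89 with VC + DZNep, 86 and 80 with DZNep, 56 and 73 with VC, and 52 and 61 with PBS (0.69 ± 0.17, adjusted p = 0.0187). In each of the 3 genes the 4 libraries with DZNep lay above the 4 without it. With DZNep alone their adjusted p against PBS lay just past the threshold, at 0.0640 for NDUFA2, 0.0652 for NDUFB2 and 0.0584 for NDUFAB1. Such a pair of p-values on either side of the threshold does not show that the combination differed from DZNep, and the tests of that difference gave an adjusted p of 0.682 for NDUFA2, 0.762 for NDUFB2 and 0.781 for NDUFAB1. NDUFB2 shares 27.9% of its exon bases with a gene on the opposite strand.

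The accessory calls were lost without single libraries. With VC + DZNep against PBS, leaving out VC + DZNep replicate 1 ended the calls of NDUFA12, NDUFC2, NDUFA2, NDUFAB1 and NDUFB2. Leaving out PBS replicate 1 ended those of NDUFC2, NDUFA2, NDUFAB1, NDUFB2 and NDUFA5, and leaving out PBS replicate 2 ended that of NDUFA12. Without VC + DZNep replicate 2, NDUFAB1, NDUFB2 and NDUFA5 were no longer called. With DZNep against PBS, the call of NDUFA5 was lost without DZNep replicate 1, DZNep replicate 2 or PBS replicate 1, that of NDUFB9 without DZNep replicate 1 or PBS replicate 2, and that of NDUFA12 without any 1 of the 8 libraries.

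The core of complex I includes nuclear subunits that carry the flavin and the iron-sulphur clusters and the mitochondrial MT-ND subunits. The 6 nuclear core genes described here had a median change of the opposite sign from that of the accessory subunits in both groups with DZNep, and the 7 MT-ND genes did not. Over 6 nuclear core genes (NDUFS1, NDUFS3, NDUFS7, NDUFS8, NDUFV1 and NDUFV2), the median log2 fold change against PBS was -0.24 with VC + DZNep, -0.064 with DZNep and 0.10 with VC. Over the 26 accessory genes it was 0.21 with VC + DZNep, 0.23 with DZNep and 0.05 with VC. Over the 7 MT-ND genes it was 0.26 with VC + DZNep and 0.27 with DZNep, with 2 called higher in each (28.6%). Of the accessory genes, 7 (26.9%) were called higher against PBS with VC + DZNep, beside 9.52% of all genes. With DZNep 3 (11.5%) were called higher, beside 6.42% of all genes, and none was called lower in either comparison. This division was made with values of these data known and has no test of its own.

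The 6 core genes did not pass against PBS in any group. NDUFS1, the large iron-sulphur subunit, averaged 207 ± 4.2 with VC + DZNep, 228 ± 5.7 with DZNep, 247 ± 12.7 with VC and 244 ± 23.3 with PBS (SD, n = 2 each). NDUFV1, which binds NADH and flavin, averaged 281 ± 4.2 with VC + DZNep, 281 ± 12.7 with DZNep, 292 ± 13.4 with VC and 288 ± 2.8 with PBS. The spread between its group means was of the size of the spread between its libraries. Of the 6, only NDUFS3 had a positive log2 fold change against PBS in the groups with DZNep, at 0.23 ± 0.18 with VC + DZNep and 0.24 ± 0.18 with DZNep, and its PBS libraries read 82 and 59.

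**Figure D2:**
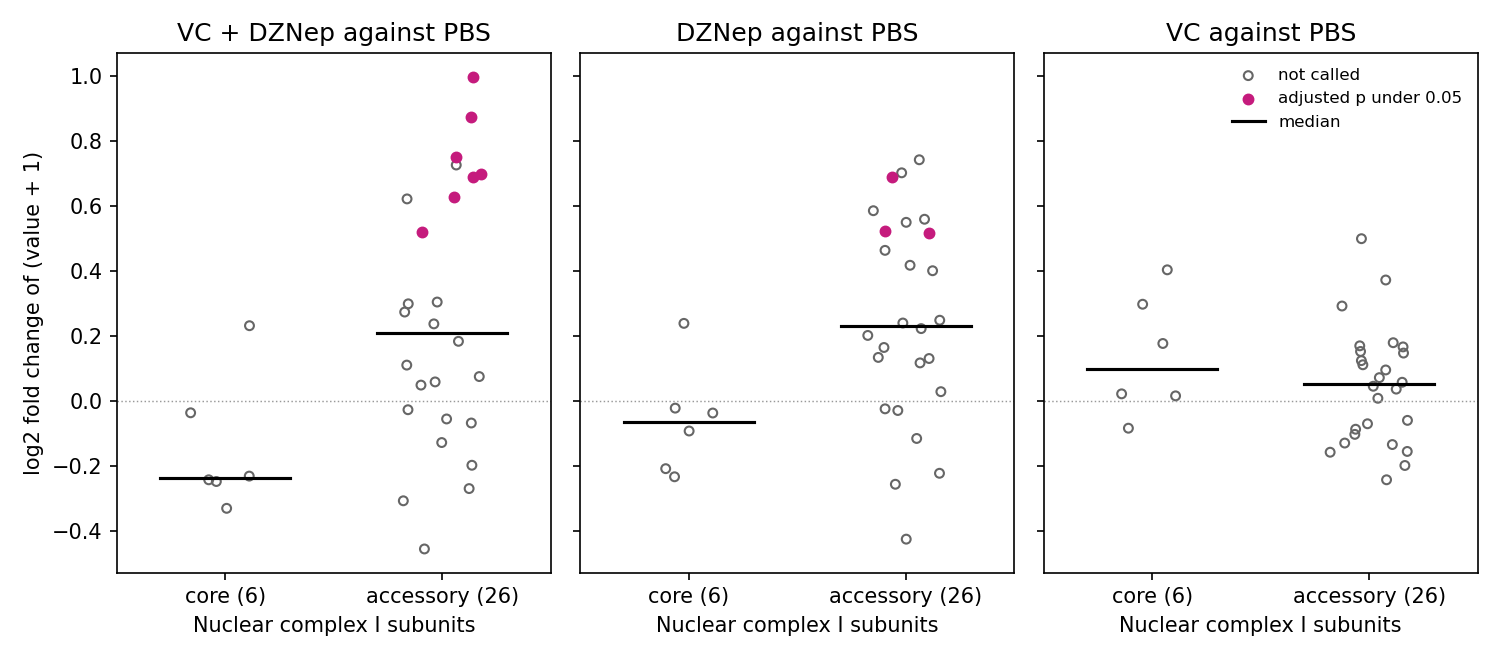
Log2 fold change of (value + 1) against PBS for 6 nuclear core and 26 accessory subunits of complex I, with VC + DZNep, DZNep and VC. Filled points passed an adjusted p of 0.05 and lines are medians; with VC + DZNep the medians are -0.24 for the core and 0.21 for the accessory genes.

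Some members had values so low that a change is hard to measure. NDUFA11, a membrane-arm subunit with the lowest mean of the members, had 22 and 16 with VC + DZNep, 18 and 22 with DZNep, 10 and 18 with VC, and 10 and 14 with PBS. NDUFB8, another membrane-arm subunit, had 22 and 24 with VC + DZNep, 14 and 24 with DZNep, 12 and 12 with VC, and 13 and 14 with PBS. The group means of both were higher in the groups with DZNep than in the VC and PBS groups. The log2 fold change with VC + DZNep against PBS was 0.62 ± 0.37 for NDUFA11 (adjusted p = 0.267) and 0.73 ± 0.33 for NDUFB8 (adjusted p = 0.147). NDUFB8 shares 33.8% of its exon bases with another gene on the same strand, so its reads are uncertain.

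Complex II, succinate dehydrogenase, links the citric acid cycle to the chain and is encoded in the nucleus only. None of its 4 genes passed in any comparison. All 4 had positive log2 fold changes against PBS in each treated group, with medians of 0.28 with VC + DZNep, 0.18 with DZNep and 0.10 with VC. The treated groups share the same PBS libraries, so the common sign is not repeated evidence. SDHD, a membrane anchor, had 72 and 91 with VC + DZNep, 84 and 86 with DZNep, 86 and 71 with VC, and 56 and 66 with PBS. All treated libraries of SDHD exceeded both PBS libraries, and the adjusted p was 0.127 with VC + DZNep, 0.0971 with DZNep and 0.954 with VC. SDHC, the other anchor, had 154 and 186 with VC + DZNep, 178 and 144 with DZNep, 144 and 137 with VC, and 128 and 135 with PBS (log2 fold change with VC + DZNep 0.36 ± 0.14, adjusted p = 0.100). The libraries of the catalytic subunits SDHA and SDHB overlapped between the groups with DZNep and PBS.

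Complex III, cytochrome bc1, had 2 of its 8 genes called against PBS with DZNep (25%, beside 13.1% of all genes). None was called with VC + DZNep, beside 19.7% of all genes. UQCRFS1, the Rieske iron-sulphur protein that carries electrons to cytochrome c1, had 188 and 246 with VC + DZNep, 274 and 266 with DZNep, 230 and 204 with VC, and 196 and 157 with PBS. It was highest with DZNep, at a log2 fold change of 0.62 ± 0.15 against PBS (adjusted p = 0.0246), while the VC + DZNep libraries overlapped the PBS libraries (0.29 ± 0.15, adjusted p = 0.207). UQCRQ, a small accessory subunit of the complex, had 78 and 62 with VC + DZNep, 79 and 83 with DZNep, 68 and 66 with VC, and 57 and 39 with PBS. Both PBS libraries of UQCRQ were the lowest, and they lay far apart. UQCRQ shares 20.8% of its exon bases with a gene on the opposite strand. Its log2 fold change against PBS was 0.55 ± 0.20 with VC + DZNep (adjusted p = 0.0784) and 0.77 ± 0.20 with DZNep (adjusted p = 0.0311). The difference between VC + DZNep and DZNep did not pass in UQCRFS1 (-0.33 ± 0.15, adjusted p = 0.385) or in UQCRQ (-0.22 ± 0.20, adjusted p = 0.690). The DZNep calls of UQCRFS1 and UQCRQ were lost without DZNep replicate 1, DZNep replicate 2 or PBS replicate 2, and that of UQCRQ also without either VC library.

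UQCRH, the hinge protein that helps cytochrome c1 meet cytochrome c, had 314 and 332 with VC + DZNep, 330 and 386 with DZNep, 420 and 476 with VC, and 377 and 374 with PBS. It was lower with VC + DZNep than with VC alone (log2 fold change -0.47 ± 0.11, adjusted p = 0.0163), and did not pass against PBS in any group. UQCRHL is a near-identical copy of UQCRH, so reads of both are uncertain. UQCRHL had 44 and 38 with VC + DZNep, 32 and 45 with DZNep, 62 and 50 with VC, and 69 and 64 with PBS. It fell in both groups with DZNep, by 0.69 ± 0.21 with VC + DZNep (adjusted p = 0.0437) and by 0.79 ± 0.21 with DZNep (adjusted p = 0.0334) on the log2 scale against PBS. The UQCRHL calls were lost without PBS replicate 1 or PBS replicate 2, among other libraries, and the UQCRH call without VC + DZNep replicate 1, VC + DZNep replicate 2 or VC replicate 2.

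Complex IV, cytochrome c oxidase, had 1 call among its 11 nuclear genes in each comparison of a DZNep group with PBS. That is 9.09%, beside 19.7% of all genes with VC + DZNep and 13.1% with DZNep. COX6A1, the widely expressed isoform of a regulatory subunit, had 108 and 100 with VC + DZNep, 102 and 119 with DZNep, 76 and 76 with VC, and 72 and 76 with PBS. The libraries with DZNep formed a group clear of the others. Its log2 fold change against PBS was 0.48 ± 0.14 with VC + DZNep (adjusted p = 0.0346) and 0.57 ± 0.14 with DZNep (adjusted p = 0.0246), and both calls were lost without PBS replicate 1 or PBS replicate 2. The VC + DZNep call of COX6A1 was also lost without either VC + DZNep or either VC library, and the DZNep call without DZNep replicate 2. COX6A1 lies on GRCh38 chromosome 12, 120438090 to 120440742, plus strand, and shares 13.0% of its exon bases with another protein-coding gene on the same strand. Over the complex the median log2 fold change against PBS was 0.19 with VC + DZNep, 0.16 with DZNep and 0.04 with VC.

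COX7A2L, which joins complexes III and IV into supercomplexes, moved the other way. It had 140 and 128 with VC + DZNep, 132 and 139 with DZNep, 202 and 179 with VC, and 188 and 174 with PBS, so the libraries with DZNep all lay below those without it. The log2 fold change against PBS was -0.43 ± 0.12 with VC + DZNep (adjusted p = 0.0305) and -0.41 ± 0.12 with DZNep (adjusted p = 0.0468), and against VC it was -0.50 ± 0.12 with VC + DZNep (adjusted p = 0.0187). The VC + DZNep call against PBS was lost without any 1 of the VC + DZNep or PBS libraries, and the DZNep call without any 1 of the 8 libraries.

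NDUFA4L2, a hypoxia-inducible relative of the complex IV subunit NDUFA4, showed the largest fall of the members. It had 7 and 12 with VC + DZNep, 8 and 16 with DZNep, 27 and 22 with VC, and 30 and 40 with PBS. The 4 libraries with DZNep were all below the 4 without it, all at low values. Its log2 fold change against PBS was -1.81 ± 0.39 with VC + DZNep (adjusted p = 0.00950) and -1.53 ± 0.39 with DZNep (adjusted p = 0.0280), and against VC it was -1.32 ± 0.39 with VC + DZNep (adjusted p = 0.0449). The VC + DZNep call against PBS was lost without VC + DZNep replicate 1 or PBS replicate 2, and the DZNep call without DZNep replicate 1, VC replicate 1 or either PBS library. ATP5S, a coupling factor linked to complex V, was the other member outside the standard subunits, with 63 and 62 with VC + DZNep, 79 and 77 with DZNep, 86 and 78 with VC, and 71 and 99 with PBS, and it did not pass.

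**Figure D3:**
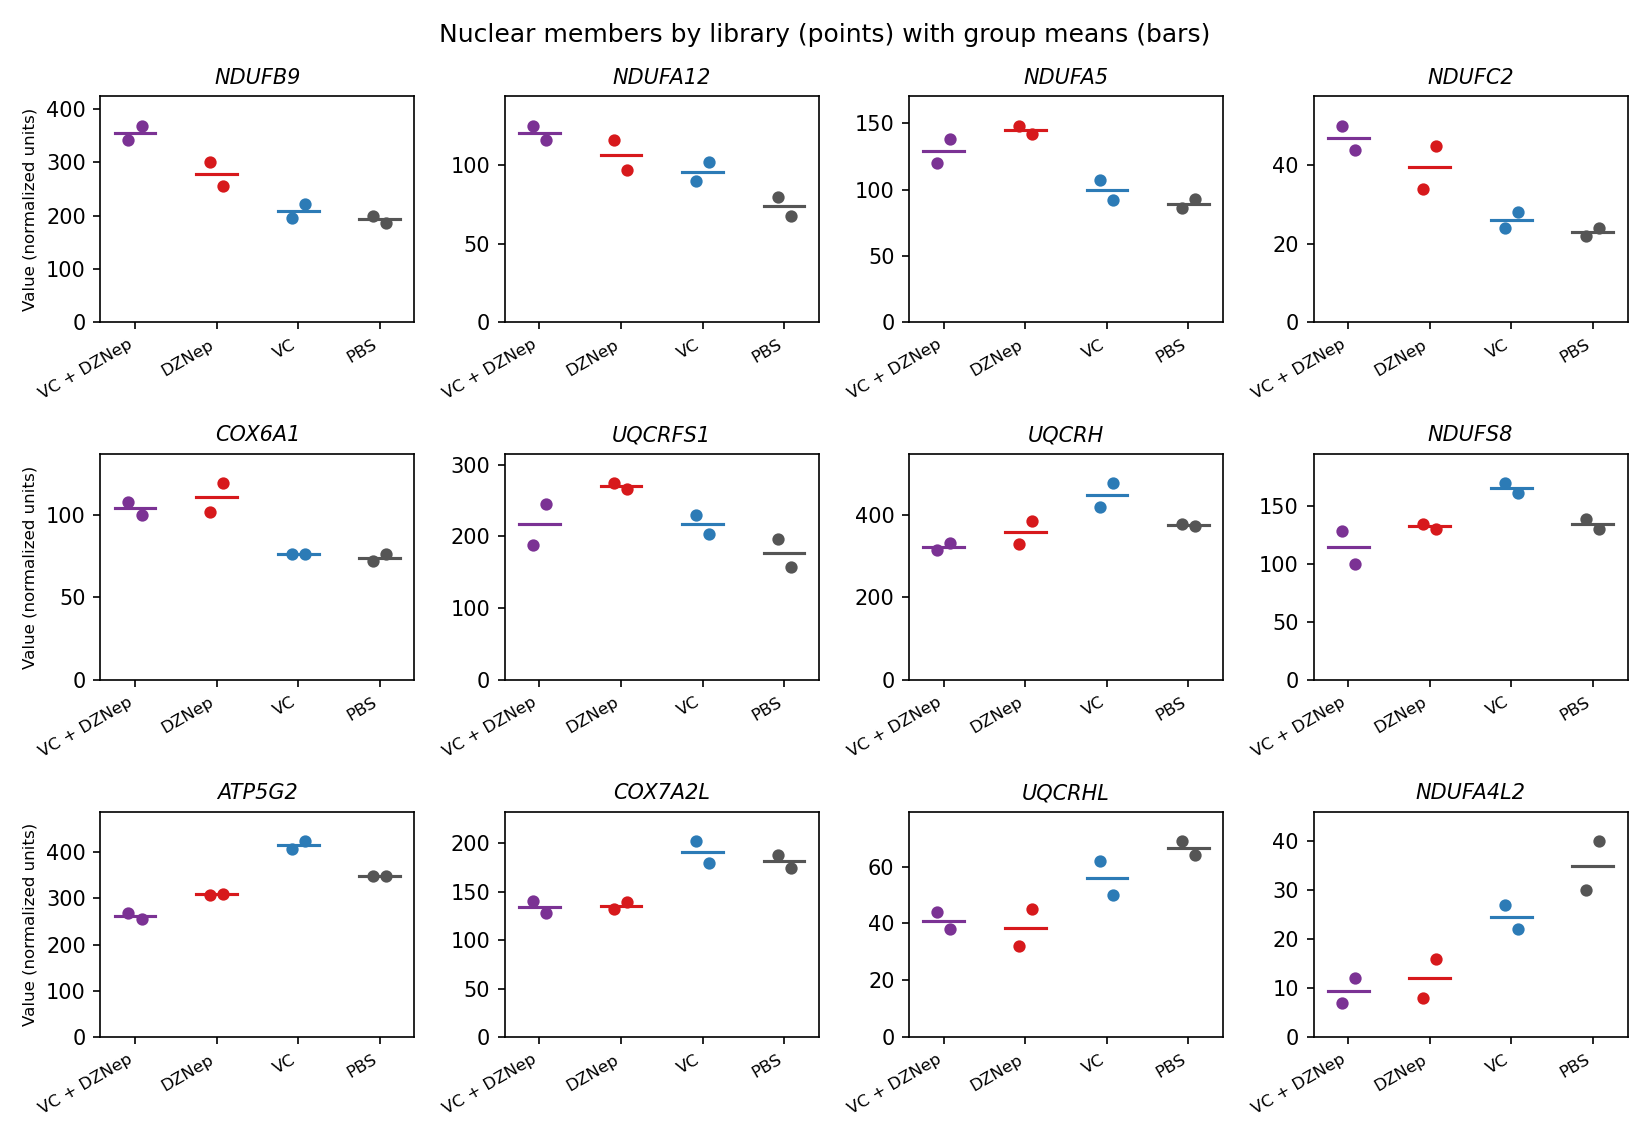
Deposited values (normalized units, linear axes from 0) of 12 nuclear members in the 2 libraries of each group, with bars at the group means. The DZNep-treated libraries of NDUFB9, NDUFC2 and COX6A1 lie above the VC and PBS libraries, and those of COX7A2L and NDUFA4L2 below them.

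Complex V, the ATP synthase, had the smallest median of the 5 complexes, at 0.063 with VC + DZNep, 0.037 with DZNep and 0.038 with VC against PBS over 15 genes. Complex I had 0.076 with VC + DZNep, 0.165 with DZNep and 0.046 with VC. Complex III had 0.277 with VC + DZNep, 0.103 with DZNep and 0.111 with VC. The smaller of these gaps lay far below the standard errors of single genes, and the order of the complexes was not tested. ATP5E, the epsilon subunit of the central stalk, had 214 and 224 with VC + DZNep, 221 and 251 with DZNep, 196 and 184 with VC, and 188 and 172 with PBS. It passed with DZNep at 0.39 ± 0.11 (adjusted p = 0.0482), a call lost without any 1 of the 8 libraries, and not with VC + DZNep (0.28 ± 0.11, adjusted p = 0.107). ATP5E shares 23.2% of its exon bases with a gene on the opposite strand. ATP5G2, a gene for the c-ring through which protons pass, had 268 and 256 with VC + DZNep, 307 and 310 with DZNep, 406 and 424 with VC, and 348 and 348 with PBS. The 4 groups of ATP5G2 did not overlap, with VC highest and VC + DZNep lowest. It fell by 0.41 ± 0.09 on the log2 scale with VC + DZNep against PBS (adjusted p = 0.0114), a call lost without VC + DZNep replicate 2. It fell by 0.66 ± 0.09 with VC + DZNep against VC (adjusted p = 0.00105), a call that held in every alternative. ATP5G2 lies on GRCh38 chromosome 12, 53632726 to 53677408, minus strand, and has close paralogues that encode the same mature protein, so its reads are uncertain. No other complex V gene passed against PBS. The 1 call in each comparison with DZNep was 6.67% of the complex, beside 19.7% of all genes with VC + DZNep and 13.1% with DZNep. ATP5B, the catalytic beta subunit, read 1172 and 1172 with VC + DZNep, 1122 and 1122 with DZNep, 1122 and 1172 with VC, and 1122 and 1122 with PBS, and like other highly placed genes it took few distinct values. ATP5A1, the alpha subunit, had 1324 and 1281 with VC + DZNep, 1280 and 1215 with DZNep, 1280 and 1376 with VC, and 1280 and 1172 with PBS, and did not pass in any comparison.

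Among the 8 NDUFAF genes, whose products help to assemble complex I, 2 passed with VC + DZNep against PBS (25%, beside 19.7% of all genes) and none with DZNep (beside 13.1%). With DZNep the fold changes of these 2 were 0.42 ± 0.17 for NDUFAF4 and 0.70 ± 0.27 for NDUFAF1, and the difference between the 2 treatments did not pass in NDUFAF4 (adjusted p = 0.748) or in NDUFAF1 (adjusted p = 0.836). NDUFAF4 had 141 and 148 with VC + DZNep, 114 and 148 with DZNep, 71 and 86 with VC, and 89 and 105 with PBS. Its VC libraries were the lowest, so that VC + DZNep stood at 0.57 ± 0.17 against PBS (adjusted p = 0.0346) and at 0.88 ± 0.17 against VC (adjusted p = 0.00621). NDUFAF1 had 31 and 38 with VC + DZNep, 28 and 33 with DZNep, 18 and 24 with VC, and 16 and 21 with PBS, and stood at 0.87 ± 0.27 against PBS with VC + DZNep (adjusted p = 0.0432). The NDUFAF4 call against PBS was lost without either VC + DZNep library or PBS replicate 1, its call against VC without VC + DZNep replicate 2 or VC replicate 1, and the NDUFAF1 call without any 1 of the 8 libraries. The group's median log2 fold change against PBS was 0.23 with VC + DZNep, 0.18 with DZNep and 0.02 with VC.

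Many respiratory chain promoters carry sites for the factors NRF1, GABPA and YY1. The 250 bases before the RefSeq start were searched on both strands for 1 motif of each, where such a window was at hand (84 windows of 66 of the 83 nuclear members, and 35116 windows of all genes, build GRCh38.p14). The GABPA letters CCGGAAG, a motif shared with other ETS factors, were in 22.6% of the members' windows and 8.52% of all windows. The NRF1 letters GCATGCG, which can overlap their own match on the other strand, were in 15.5% of the members' windows and 3.39% of all windows. The YY1 letters AAGATGG were in 5.95% of the members' windows and 3.70% of all windows. Of the 11 members with a window that were called higher with DZNep or VC + DZNep against PBS, 3 held the GABPA letters: COX6A1 (chr12:120437863-120438112, plus strand), NDUFAF4 (chr6:96897892-96898141, minus strand) and UQCRQ (chr5:132866392-132866641, plus strand). The NRF1 letters were in windows of 2 of the 11, COX6A1 and NDUFA5, and the YY1 letters in 1, NDUFA5. Of the 2 called lower with a window, ATP5G2 (chr12:53676084-53676333, minus strand) and COX7A2L, neither held the GABPA letters and ATP5G2 held the NRF1 letters. The windows of the 3 genes with GABPA letters and, as a gene called lower, 1 window of ATP5G2 are printed to show where the letters lie. Each is read 5′ to 3′ on the gene's strand, with every match to one of the 3 motifs on either strand in capitals.
COX6A1: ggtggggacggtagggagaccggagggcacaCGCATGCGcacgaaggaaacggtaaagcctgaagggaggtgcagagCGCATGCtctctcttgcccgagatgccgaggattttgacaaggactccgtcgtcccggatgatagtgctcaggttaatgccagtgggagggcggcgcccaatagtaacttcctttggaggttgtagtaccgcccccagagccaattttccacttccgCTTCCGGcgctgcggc
NDUFAF4: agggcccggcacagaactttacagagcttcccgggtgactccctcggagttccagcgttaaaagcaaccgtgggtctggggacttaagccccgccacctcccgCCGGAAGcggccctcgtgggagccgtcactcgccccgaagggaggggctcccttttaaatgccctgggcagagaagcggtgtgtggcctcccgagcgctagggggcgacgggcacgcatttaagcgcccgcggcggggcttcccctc
UQCRQ: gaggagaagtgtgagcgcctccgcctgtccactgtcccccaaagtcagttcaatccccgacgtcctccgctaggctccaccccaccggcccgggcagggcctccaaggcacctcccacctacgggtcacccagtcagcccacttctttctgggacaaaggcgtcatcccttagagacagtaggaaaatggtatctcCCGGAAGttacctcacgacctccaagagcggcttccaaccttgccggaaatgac
ATP5G2: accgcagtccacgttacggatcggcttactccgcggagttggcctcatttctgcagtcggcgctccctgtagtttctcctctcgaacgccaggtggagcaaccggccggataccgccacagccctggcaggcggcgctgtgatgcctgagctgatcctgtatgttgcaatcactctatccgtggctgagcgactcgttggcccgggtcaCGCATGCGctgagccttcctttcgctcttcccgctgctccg
A match is a string of letters and no evidence of binding, and no match says only that these letters are not in the window.

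Mitochondrial DNA encodes 7 subunits of complex I (MT-ND genes), 1 of complex III (MT-CYB), 3 of complex IV (MT-CO genes) and 2 of complex V (MT-ATP genes), and its transcripts are cut from long precursors. Of the 13 genes, 3 passed against PBS, all higher, in both comparisons with DZNep: MT-ND3, MT-ND4L and MT-ATP8. That is 23.1% of them, beside 19.7% of all genes with VC + DZNep and 13.1% with DZNep. MT-ND3 (mitochondrial genome 10059 to 10404, plus strand), a small membrane subunit of complex I, had 1122 and 1099 with VC + DZNep, 1074 and 1099 with DZNep, 900 and 962 with VC, and 752 and 900 with PBS. The libraries with DZNep were clear of the rest, and the log2 fold change against PBS was 0.43 ± 0.09 with VC + DZNep (adjusted p = 0.0108) and 0.40 ± 0.09 with DZNep (adjusted p = 0.0213).

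MT-ND4L (10470 to 10766, plus strand), another membrane subunit of complex I, had 2170 and 2168 with VC + DZNep, 2170 and 2170 with DZNep, 1826 and 1904 with VC, and 1749 and 1826 with PBS. Its 4 libraries with DZNep were nearly identical. All held rank 10 of the shortest decile, so their likeness is not a measure of precision. The log2 fold change against PBS was 0.28 ± 0.07 both with VC + DZNep (adjusted p = 0.0186) and with DZNep (adjusted p = 0.0249). MT-ATP8 (8366 to 8572, plus strand), a small subunit of the membrane part of complex V, had 1750 and 1904 with VC + DZNep, 1826 and 2021 with DZNep, 1548 and 1444 with VC, and 1216 and 1548 with PBS. Its log2 fold change against PBS was 0.41 ± 0.11 with VC + DZNep (adjusted p = 0.0282) and 0.49 ± 0.11 with DZNep (adjusted p = 0.0194). MT-ATP8 shares 46 of its 207 bases with MT-ATP6 and MT-ND4L shares 7 bases with MT-ND4, so reads in those stretches are uncertain. All 6 of these calls were lost without PBS replicate 1, which was the lowest library for each of the 3 genes, and the 3 DZNep calls also without DZNep replicate 1 or DZNep replicate 2. The VC + DZNep calls of MT-ND3 and MT-ATP8 were also lost without VC + DZNep replicate 1, and that of MT-ATP8 without VC + DZNep replicate 2.

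The other 10 mitochondrial genes did not pass. MT-ND6, the only one encoded on the light strand, had 980 and 1014 with VC + DZNep, 944 and 1122 with DZNep, 980 and 870 with VC, and 686 and 1014 with PBS, with PBS replicate 1 far below the rest. MT-ND5, a proton-pumping subunit of complex I, had 2460 and 2460 with VC + DZNep, 2460 and 2726 with DZNep, 2460 and 2460 with VC, and 2170 and 2460 with PBS. MT-ND1, which holds part of the quinone channel, read 2726 in every library except DZNep replicate 2, at 2460. Many libraries share the same value because each behaves as a rank. A mitochondrial gene could thus hardly change without passing another highly placed gene of short span.

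MT-CO1, the catalytic subunit of complex IV, held the highest value of the table, 10345, in all 8 libraries, and MT-ATP6, the proton channel subunit of complex V, held 3114 in all 8. No change of either could therefore be seen in this table, which is not the same as no change in the cells. MT-ND4 and MT-CO3 traded places in VC replicate 1 and PBS replicate 2. MT-ND4, a proton-pumping subunit, had 7552 and 7552 with VC + DZNep, 7552 and 7552 with DZNep, 5185 and 7552 with VC, and 7552 and 5185 with PBS. MT-CO3, the remaining large complex IV subunit, had 4797 and 5184 with VC + DZNep, 4797 and 5184 with DZNep, 7552 and 5185 with VC, and 5185 and 7552 with PBS (log2 fold change -0.33 ± 0.18 in both comparisons with PBS, adjusted p = 0.237 with VC + DZNep and 0.270 with DZNep). MT-CO2, which accepts electrons from cytochrome c, had 5184 and 4797 with VC + DZNep, 5184 and 4797 with DZNep, 4267 and 4797 with VC, and 4797 and 4267 with PBS. The libraries of MT-CO2 overlapped between all groups. MT-CYB, cytochrome b of complex III, had 4267 and 4267 with VC + DZNep, 4267 and 3652 with DZNep, 3652 and 3652 with VC, and 4267 and 3652 with PBS. MT-ND2, a further proton-pumping subunit, had 3652 and 3652 with VC + DZNep, 3652 and 4267 with DZNep, 4797 and 4267 with VC, and 3652 and 4797 with PBS. Both overlapped between the treated groups and PBS.

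**Figure D4:**
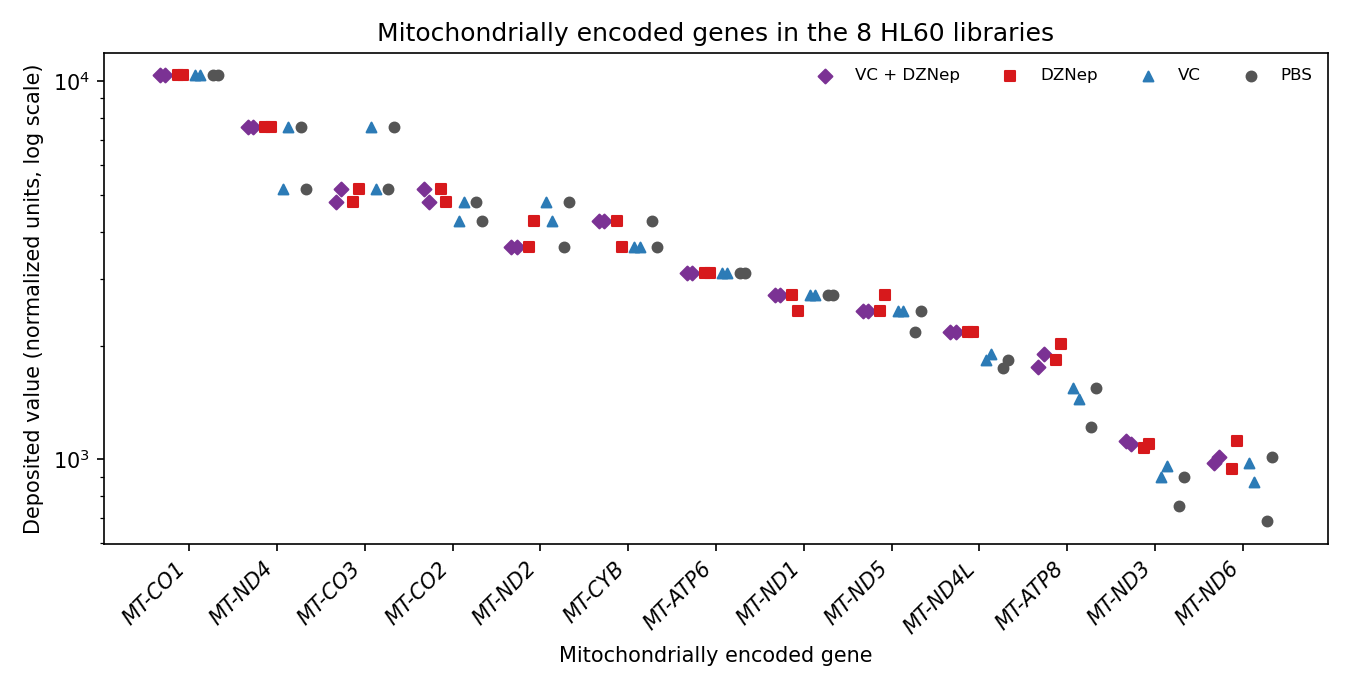
Deposited values (normalized units, log axis) of the 13 mitochondrially encoded genes, 2 libraries per group, ordered by level. MT-CO1 at 10345 and MT-ATP6 at 3114 do not vary, and MT-ND4L, MT-ATP8 and MT-ND3 are higher in the VC + DZNep and DZNep libraries than in the PBS libraries.

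Ranks among the 954 genes of shortest span give the same data without the scale. MT-ND4L ranked 10 and 10 with VC + DZNep, 10 and 10 with DZNep, 13 and 12 with VC, and 14 and 13 with PBS. MT-ATP8 ranked 14 and 12 with VC + DZNep, 13 and 11 with DZNep, 15 and 16 with VC, and 20 and 15 with PBS. MT-ND3 ranked 22 and 23 with VC + DZNep, 24 and 23 with DZNep, 32 and 29 with VC, and 41 and 32 with PBS. Each of the 3 genes stood nearer to the top in all libraries with DZNep than in all libraries without it. Mitochondrial genes filled all of the first 10 ranks in the 4 libraries with DZNep and 9 of them in each VC and PBS library, where the ribosomal protein gene RPL13A held the remaining one. The 13 values summed to 2.52% and 2.53% of the library total with VC + DZNep, 2.52% and 2.54% with DZNep, 2.48% and 2.48% with VC, and 2.42% and 2.48% with PBS. The values are scores and the total is the same in every library, so these percentages are not shares of reads or of RNA.

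**Figure D5:**
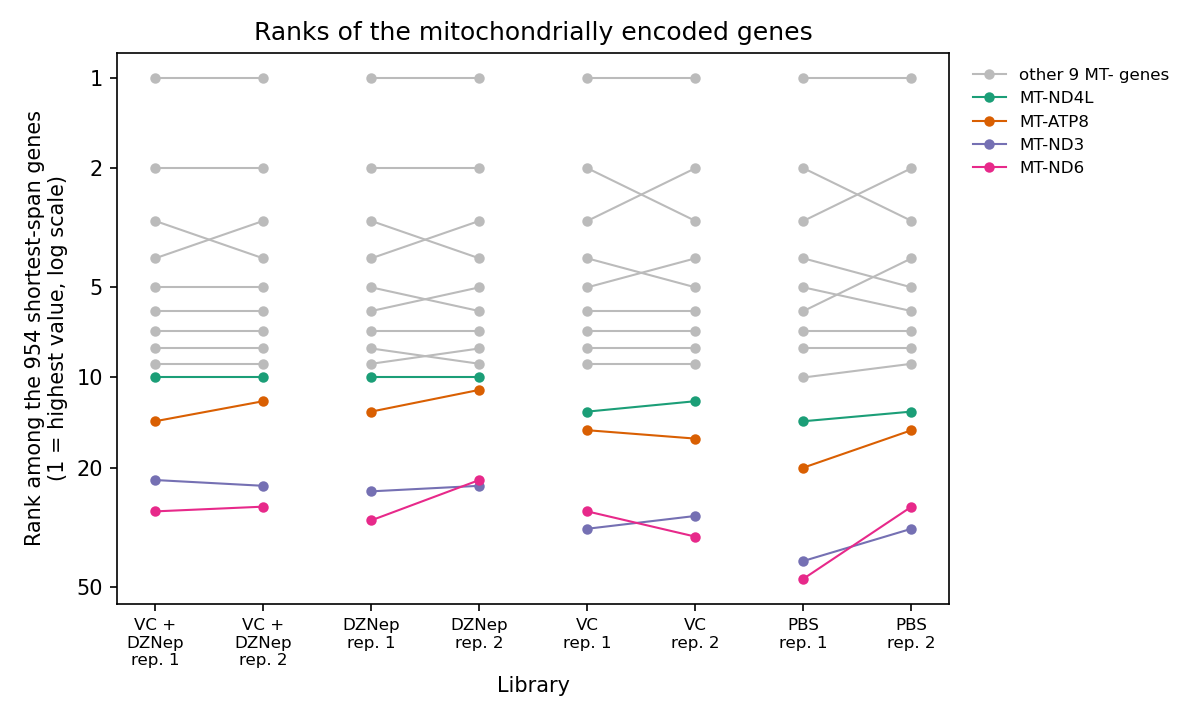
Rank of the 13 mitochondrially encoded genes among the 954 genes of shortest span in each library (log axis, 1 is the highest value). MT-ND4L ranks 10 in the 4 VC + DZNep and DZNep libraries and 12 to 14 in the VC and PBS libraries, and PBS replicate 1 holds the lowest places of MT-ATP8, MT-ND3 and MT-ND6.

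The genes that the mitochondrial ones passed were nearly all ribosomal protein genes, which have short spans and high values. With VC + DZNep, MT-ND4L, MT-ATP8, MT-ND3 and MT-ND6 were above 13 distinct nuclear genes in both treated libraries that had been above them in both PBS libraries, and with DZNep above 12. Of these, 12 of 13 with VC + DZNep and 11 of 12 with DZNep encode ribosomal proteins, and the remaining one in each is GAPDH, a glycolytic enzyme. No nuclear gene passed in the other direction. The passed genes had log2 fold changes against PBS of -0.40 to 0 with VC + DZNep and -0.39 to -0.03 with DZNep, and 2 of them with VC + DZNep and 1 with DZNep were called lower. These genes were chosen for falling behind a mitochondrial gene, so their lack of rises follows in part from that choice. The share of ribosomal protein genes among all genes at these ranks was not counted. All 47 ribosomal protein genes of the shortest decile together had a median of -0.07 with VC + DZNep and of -0.05 with DZNep. Of them 6 were called lower with VC + DZNep, beside 10.2% of all genes, and 1 with DZNep, beside 6.63%. A rise of the mitochondrial genes and a fall of these neighbours cannot be told apart in ranks, and the part of either was not tested.

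Nuclear and mitochondrial members were then set against each other. The median log2 fold change against PBS over the 13 mitochondrial genes was 0.11 with VC + DZNep, 0.14 with DZNep and 0 with VC, close to the medians over the 71 nuclear subunits given above. The mitochondrial median minus the nuclear one was 0.001 with VC + DZNep against PBS, 0.0089 with DZNep against PBS and -0.06 with VC against PBS. All were below the SD of this gap between libraries of a group, 0.073. Most mitochondrial genes held the top ranks of their decile in every library and traded places almost only with each other. Their median is thus largely set by those ranks. A small gap therefore does not show that mitochondrial and nuclear genes moved alike. PBS replicates 1 and 2 differed from each other more than the treatments did, with a gap of -0.07 in replicate 1 and 0.10 in replicate 2. Without PBS replicate 1 the gap with VC + DZNep against PBS became -0.14, and without PBS replicate 2 it became -0.11.

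Within the shortest decile, which the mitochondrial genes share with 17 nuclear subunits, the nuclear subunits had a median of 0.21 with VC + DZNep and 0.13 with DZNep against PBS. The 920 other genes of that decile had medians of 0.0086 with VC + DZNep and 0.0137 with DZNep. Centring every gene on the genes of its own decile gave 18 members called with VC + DZNep and 14 with DZNep against PBS, the same counts as above. Values already behave as positions among genes of like span, so this step could change little. The equal counts therefore say nothing about a bias by span.

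The effect of adding vitamin C to DZNep was asked by comparing VC + DZNep with DZNep alone. No member passed, beside 0.673% of all genes. Without adjustment 5 of 96 members had a p under 0.05, beside 1280 of the 9513 genes tested. The members with the smallest p were NDUFB9 (log2 fold change 0.35 ± 0.12, adjusted p = 0.229), NDUFB5 and ATP5G2 (-0.24 ± 0.09, adjusted p = 0.296). NDUFB5, a membrane-arm subunit of complex I, had 78 and 93 with VC + DZNep, 119 and 120 with DZNep, 105 and 99 with VC, and 100 and 137 with PBS. Its VC + DZNep libraries were the lowest of all, at -0.48 ± 0.17 against DZNep (adjusted p = 0.236). With VC alone against PBS, the smallest p-values belonged to ATP5O, ATP5G2 and UQCRQ, each with an adjusted p of 0.954. ATP5O, part of the stalk that holds the ATP synthase still, had 46 and 47 with VC + DZNep, 49 and 43 with DZNep, 36 and 31 with VC, and 52 and 48 with PBS, and was lower in both VC libraries than in every other library (log2 fold change -0.57 ± 0.18 against PBS).

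Relative to VC alone, VC + DZNep had 12 members called (12.5%), beside 15% of all genes. Of these 5 were higher, beside 6.89% of all genes, and 7 were lower, beside 8.14%. The higher ones were NDUFAF4, NDUFB9, NDUFA2, NDUFC2 and NDUFB2, and the lower ones included ATP5G2, UQCRH, COX7A2L, NDUFS8, NDUFA4L2 and NDUFB1. The 6 core genes named above all had a negative log2 fold change here, with a median of -0.21, beside a median of 0.28 over the 26 accessory genes, of which 4 were called higher and 1 lower. NDUFS8, the core subunit with 2 iron-sulphur clusters, had 128 and 100 with VC + DZNep, 134 and 130 with DZNep, 169 and 161 with VC, and 138 and 130 with PBS (-0.54 ± 0.14 against VC, adjusted p = 0.0259). NDUFB1, a small membrane-arm subunit, had 44 and 54 with VC + DZNep, 56 and 60 with DZNep, 76 and 69 with VC, and 62 and 56 with PBS (-0.56 ± 0.17 against VC, adjusted p = 0.0496). Both were highest with VC and lowest with VC + DZNep. The count of 12 became 2 without VC + DZNep replicate 2, 3 without VC replicate 1, 3 without VC replicate 2 and 6 without VC + DZNep replicate 1. The NDUFS8 call was lost without VC + DZNep replicate 2 or either VC library, and the NDUFB1 call without any 1 of the 8 libraries.

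Whether vitamin C acted differently with and without DZNep was asked by the interaction. No member passed, beside 0.021% of all genes. Without adjustment 7 of 96 members had a p under 0.05, beside 740 of the 9513 genes tested. First of the members by p came ATP5G2 (interaction -0.49 ± 0.13 on the log2 scale, adjusted p = 0.445), UQCRFS1 (-0.63 ± 0.21, adjusted p = 0.597) and NDUFS8 (-0.52 ± 0.20, adjusted p = 0.60). In ATP5G2, NDUFB1, NDUFS8, UQCRFS1 and UQCRQ, both VC libraries were above both PBS libraries and both VC + DZNep libraries below both DZNep libraries. Counting that order and its reverse together, these were 5 of 96 members (5.21%), beside 477 of 9513 genes tested (5.01%). How the 477 divide between that order and its reverse was not counted.

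Genes of the same pathway outside the symbol rule were counted by list, beside 19.7% of all genes called with VC + DZNep and 13.1% with DZNep. Of 16 genes that copy and transcribe mitochondrial DNA, 3 rose against PBS with VC + DZNep (18.8%) and 5 with DZNep (31.2%), and none fell. TWNK, the replicative helicase of mitochondrial DNA, had 284 and 268 with VC + DZNep, 239 and 249 with DZNep, 182 and 156 with VC, and 149 and 158 with PBS. The DZNep-treated libraries of TWNK were all above the others, at log2 fold changes against PBS of 0.84 ± 0.11 with VC + DZNep (adjusted p = 0.000737) and 0.67 ± 0.11 with DZNep (adjusted p = 0.00460). POLRMT, the mitochondrial RNA polymerase, had 234 and 226 with VC + DZNep, 261 and 256 with DZNep, 184 and 168 with VC, and 203 and 171 with PBS, and passed with DZNep (0.47 ± 0.12, adjusted p = 0.0256) but not with VC + DZNep (0.30 ± 0.12, adjusted p = 0.0956). MTERF4, which works in mitochondrial ribosome assembly, and TFB2M, a transcription initiation factor, rose in both groups with DZNep, MTERF4 by 0.72 ± 0.15 in each and TFB2M by 0.63 ± 0.20 with VC + DZNep and 0.70 ± 0.20 with DZNep. MTERF3, a related factor, stood at 0 ± 0.17 with VC + DZNep and 0.62 ± 0.17 with DZNep (adjusted p = 0.0382).

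Of 20 genes for processing and stability of mitochondrial RNA, 3 rose against PBS with VC + DZNep (15%, beside 19.7% of all genes) and 4 with DZNep (20%, beside 13.1%), and none fell. KIAA0391, the nuclease of mitochondrial RNase P, had 40 and 26 with VC + DZNep, 35 and 49 with DZNep, 20 and 20 with VC, and 12 and 18 with PBS, at log2 fold changes against PBS of 1.08 ± 0.30 with VC + DZNep (adjusted p = 0.0315) and 1.43 ± 0.30 with DZNep (adjusted p = 0.0132). FASTKD5, needed to cut precursors that lack flanking tRNAs, had 82 and 78 with VC + DZNep, 86 and 94 with DZNep, 52 and 54 with VC, and 56 and 56 with PBS (0.51 ± 0.15 with VC + DZNep, adjusted p = 0.0342, and 0.67 ± 0.15 with DZNep, adjusted p = 0.0142). Both genes were higher in all libraries with DZNep than in all without it. FASTKD2 also rose with VC + DZNep, and FASTKD3 and TBRG4 with DZNep. The median log2 fold change of this list was 0.19 with VC + DZNep and 0.26 with DZNep, and that of the replication and transcription list was 0.13 with VC + DZNep and 0.19 with DZNep.

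Assembly factors moved in both directions. Of 6 for complex III, 2 rose and 1 fell with VC + DZNep (50% called, beside 19.7% of all genes). With DZNep 2 rose (33.3%, beside 13.1%). TTC19, which clears fragments of the Rieske protein, had 192 and 228 with VC + DZNep, 189 and 172 with DZNep, 122 and 125 with VC, and 124 and 124 with PBS, at 0.75 ± 0.12 with VC + DZNep (adjusted p = 0.00245) and 0.54 ± 0.12 with DZNep (adjusted p = 0.0192). BCS1L, which inserts the Rieske protein, stood at 0.75 ± 0.18 with VC + DZNep (adjusted p = 0.0149) and 0.56 ± 0.18 with DZNep (adjusted p = 0.0619), and UQCC2, which acts on cytochrome b, at -0.71 ± 0.20 with VC + DZNep (adjusted p = 0.0291) and -0.58 ± 0.20 with DZNep (adjusted p = 0.0765). LYRM7, the chaperone of the Rieske protein, passed with DZNep at 0.68 ± 0.17 (adjusted p = 0.0268).

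Of 20 assembly factors for complex IV, 1 rose and 2 fell with VC + DZNep (15% called, beside 19.7% of all genes) and 2 rose with DZNep (10%, beside 13.1%). COA6, which takes part in copper delivery to MT-CO2, had 68 and 58 with VC + DZNep, 70 and 58 with DZNep, 46 and 46 with VC, and 41 and 36 with PBS, and rose in both groups, by 0.69 ± 0.18 with VC + DZNep (adjusted p = 0.0231) and 0.72 ± 0.18 with DZNep (adjusted p = 0.0275). TACO1, the translational activator of MT-CO1, had 22 and 24 with VC + DZNep, 33 and 34 with DZNep, 36 and 31 with VC, and 37 and 56 with PBS, and was lowest with VC + DZNep (-0.96 ± 0.24 against PBS, adjusted p = 0.0197). SURF1, an early assembly factor, stood at -0.88 ± 0.22 with VC + DZNep (adjusted p = 0.0222) and -0.56 ± 0.22 with DZNep (adjusted p = 0.126). COA7 passed with DZNep at 0.47 ± 0.13 (adjusted p = 0.0456). None of 14 further complex I assembly factors, 3 for complex II, 3 for complex V, or 8 other subunits and carriers passed in either comparison.

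Of 9 nuclear regulators of respiratory genes, 1 rose and 1 fell with VC + DZNep (22.2% called, beside 19.7% of all genes) and 1 rose with DZNep (11.1%, beside 13.1%). ESRRA, a nuclear receptor that activates respiratory genes, had 105 and 103 with VC + DZNep, 130 and 124 with DZNep, 166 and 162 with VC, and 155 and 155 with PBS. Its VC + DZNep libraries were the lowest and its DZNep libraries the next, and the log2 fold change against PBS was -0.57 ± 0.11 with VC + DZNep (adjusted p = 0.00641) and -0.29 ± 0.11 with DZNep (adjusted p = 0.123). PPARGC1B, a coactivator of mitochondrial biogenesis, had 128 and 106 with VC + DZNep, 93 and 92 with DZNep, 88 and 76 with VC, and 78 and 84 with PBS (0.52 ± 0.15 with VC + DZNep, adjusted p = 0.0338). MYC, which activates many growth genes and is amplified in HL60 cells, stood at 0.21 ± 0.09 with VC + DZNep (adjusted p = 0.158) and 0.52 ± 0.09 with DZNep (adjusted p = 0.00652). NRF1 and GABPA, whose motifs were counted in the promoters, did not pass. The adjusted p of NRF1 was 0.987 with VC + DZNep and 0.653 with DZNep, and that of GABPA 0.423 with VC + DZNep and 0.359 with DZNep. With VC alone against PBS no gene of these lists passed.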

How the data were processed

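RNA of HL60 cells was sequenced after Illumina TruSeq preparation, per the labels' protocols. The submitters' processing notes name builds GRCh38 and hg38 and the tools DESeq 1.18.1, HTSeq 0.6.0, HISAT2 2.0.4 and SAMtools 1.3.1, and the deposited sheet is named for EDASeq. For each library the authors deposited 1 whole number per gene after normalization, which is treated as a score and not as a count; the settings of that step are not given in the sources used here. The columns called control were taken as the PBS group, the only drug-free group of the labels. The identical distribution of the libraries removes any shift shared by most genes, and read depth is unknown.

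Genes were matched by Ensembl identifier to GENCODE 29 (9543 of 9543). Those with a mean of at least 10 over the 8 libraries were tested (9513; 30 were dropped). A model with a mean for each group was fitted to log2(value + 1) of all 8 libraries (limma 3.58.1, R 4.3.3), letting the prior variance follow mean intensity (4 residual and 6.46 prior degrees of freedom). There were 6 comparisons, each two-sided and adjusted by Benjamini-Hochberg over all genes, with a threshold of 0.05. Fold changes carry limma's standard error (SE), and a group mean carries the SD of its libraries (n = 2). The fit was also run on simulated data, with independent noise and planted changes larger than those of most members. No result here rests on that run. Alternatives were pseudocounts of 5 and 16, no filter or a mean of at least 50, median-of-ratios scaling, centring on genes of the same span decile, no intensity trend, the replicate number as a block, only the libraries of the groups compared, and each library left out.

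The members, gene lists and divisions were chosen with earlier results of these data known. Named members were the mitochondrial genes, up to 10 called per direction and comparison, the 3 smallest p-values where fewer than 3 were called, the smallest p per complex and the 3 lowest means, and up to 4 genes of each other list by smallest p. Promoter windows came from RefSeq (GRCh38.p14) for 66 of 83 nuclear members, and coordinates from GENCODE 29. Of the members, 1 is counted in the totals and is not reported here by name.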

Additional observations from a re-analysis of the deposited data

How the results depend on the processing

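Counts of members called (limma, adjusted p under 0.05) moved most with the libraries used and with the variance trend, and the cause was not tested. With DZNep against PBS, 14 members became 5 with no intensity trend and 1 with only the libraries of the groups compared, and leaving out single libraries gave 1 to 10. With VC + DZNep against PBS, 18 became 5 with only the libraries of the groups compared and 5 to 17 with single libraries left out. With VC + DZNep against VC, 12 became 7 with no intensity trend and 2 to 15 with single libraries left out. Other pseudocounts, filters, scaling and span centring kept these counts within 1.5 times. Scaling and span centring could change little, because the deposited values already share 1 distribution and behave as positions among genes of like span. The count was 0 under every alternative run for VC against PBS, VC + DZNep against DZNep and the interaction; the interaction with only the libraries of the groups compared was not run.

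The gap between the mitochondrial and nuclear medians with single libraries left out ranged from -0.1416 to 0.0128 for VC + DZNep against PBS (-0.1053 without PBS replicate 2) and from -0.0803 to 0.0247 for VC against PBS. With single libraries left out, the log2 fold change against PBS took both signs for 5 mitochondrial results, lowest without PBS replicate 1 and highest without PBS replicate 2. The range was -0.025 to 0.54 for MT-ND6 with VC + DZNep and -0.28 to 0.11 for MT-ND2 with DZNep, where the value without DZNep replicate 1 was 0.03. With VC it was -0.050 to 0.30 for MT-ATP8, -0.084 to 0.31 for MT-ND2 and -0.13 to 0.43 for MT-ND6. None of these was called.

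With the replicate number as a block, 17 members were called with VC + DZNep against PBS, 13 with DZNep against PBS and 10 with VC + DZNep against VC. Deviations of same-numbered libraries correlated between groups at -0.05 to 0.09 across genes, so the normalized values show no pairing by number. Whether same-numbered libraries shared a culture or batch is not stated in the labels. With 2 libraries a group and no known depth, small changes of members with low values could not be measured.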
